A study of Mus musculus with 30 samples.

Results

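The genes described here are 39 mouse genes of glutamate signalling and its synaptic partners, 18 glutamate receptor genes and 21 genes for their auxiliary subunits, scaffolds, kinases and adhesion partners. They were taken by symbol from 36528 gene identifiers in the count data, and all 39 were found. The receptor genes comprise 4 AMPA receptor subunits (Gria1 to Gria4), 4 NMDA receptor subunits (Grin1, Grin2a, Grin2b and Grin2c), 5 kainate receptor subunits (Grik1 to Grik5) and 5 metabotropic receptors (Grm2, Grm3, Grm5, Grm7 and Grm8). The remaining genes comprise 3 AMPA receptor auxiliary subunits (Cacng2, Cacng3 and Cacng8), 4 MAGUK scaffolds (Dlg1 to Dlg4), 3 SAPAP scaffolds (Dlgap1 to Dlgap3), 3 Shank scaffolds (Shank1 to Shank3), 3 Homer scaffolds (Homer1 to Homer3), 2 subunits of the kinase CaMKII (Camk2a and Camk2b) and 3 neuroligins (Nlgn1 to Nlgn3).

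At an excitatory synapse, glutamate opens AMPA, NMDA and kainate receptor channels in the postsynaptic membrane, while metabotropic receptors, several of them mainly presynaptic, signal through G proteins. Beneath that membrane, MAGUK proteins such as PSD-95, the product of Dlg4, hold the receptors and bind SAPAP proteins, which in turn bind Shank proteins, and Homer proteins tie Shank to metabotropic receptors. CaMKII is an abundant kinase of this density, and Camk2a and Shank1 are among the mRNAs known to be carried into dendrites. Grin2c and Grm3 are known to be expressed in astrocytes as well as in neurons.

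RNA had been sequenced from cells sorted from the brain by 1 of 3 labels, which were Gfap (astrocytes), Cd11b (myeloid cells, mainly microglia) and NeuN (neurons). The mice were 11.5 months old and were either PS2APP transgenic or non-transgenic (non-Tg). PS2APP is a line that carries mutant human APP and mutant human presenilin 2 and develops amyloid plaques. The 6 groups of 5 libraries each were PS2APP astrocytes, PS2APP myeloid cells, PS2APP neurons, non-Tg astrocytes, non-Tg myeloid cells and non-Tg neurons. The labels give neither the promoters of the transgenes nor the animal behind a library, so replicate numbers only name libraries, and p-values measure the spread between libraries, which may in part be technical.

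Total counts ran between 2015535 and 6749681 per library, so that 3 counts correspond to between 0.444 and 1.49 CPM (counts scaled to library depth). Myeloid libraries from PS2APP mice were shallower, at 2015535 to 2908222 counts against 3578249 to 6143018 counts in non-Tg myeloid libraries. Each sort held its defining markers: Gfap averaged 1274 CPM in PS2APP astrocytes and 731 CPM in non-Tg astrocytes, Itgam, which encodes Cd11b, averaged 1099 CPM in PS2APP and 1537 CPM in non-Tg myeloid cells, and Rbfox3, which encodes NeuN, averaged 167 CPM in PS2APP and 116 CPM in non-Tg neurons. App, the gene carried by a transgene, averaged 395 ± 103 CPM in PS2APP and 301 ± 30.6 CPM in non-Tg neurons (SD, n = 5 each), with overlapping ranges, and how reads of the human transgenes were placed is not given in the sources used here. On the first principal component, PS2APP myeloid replicate 4 and PS2APP astrocyte replicate 3 stood apart in their sorts. In neurons that component held 58.6% of the variance and the scores were spread over libraries of both genotypes. They ran from 89.8 in PS2APP replicate 5 and 48.2 in PS2APP replicate 3 to -54.7 in non-Tg replicate 3. Several of the counts, medians and single-gene differences below are also given without PS2APP neuron replicate 5, PS2APP myeloid replicate 4 or PS2APP astrocyte replicate 3. Leaving out replicate 5 does not remove the spread among the other neuron libraries.

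Most members were lower in each glial sort than in neurons, while Grin2c and Homer3 were higher in both glial sorts and Grm3 and Nlgn3 were higher in astrocytes. Among the members higher in a glial sort than in neurons, Grin2c, Grm3 and Homer3 had an entry among the RefSeq promoters of GRCm38.p6. Camk2b, a gene whose myeloid level differed by genotype, had one too. Each entry runs from 250 bases before to 50 bases after the start used by that source. Only for Grm3 does that start fall on the outer end of the gene span. The Camk2b stretch lies wholly inside its gene, whose span reaches base 6066357. These promoters are shown because these genes carry the differences described below, with capitals marking each GC box (GGGCGG, or CCGCCC on the other strand; overlapping boxes merge). The promoters lie at chr11:115267194-115267493 on the minus strand (Grin2c), chr5:9725303-9725602 on the minus strand (Grm3), chr8:70282749-70283048 on the plus strand (Homer3) and chr11:6065699-6065998 on the minus strand (Camk2b).
Grin2c: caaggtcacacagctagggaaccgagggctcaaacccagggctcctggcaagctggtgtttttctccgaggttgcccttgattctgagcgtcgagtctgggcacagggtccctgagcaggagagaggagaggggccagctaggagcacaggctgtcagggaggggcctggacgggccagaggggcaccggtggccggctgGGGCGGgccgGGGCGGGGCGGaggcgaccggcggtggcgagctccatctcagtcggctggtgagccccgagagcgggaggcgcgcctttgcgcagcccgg
Grm3: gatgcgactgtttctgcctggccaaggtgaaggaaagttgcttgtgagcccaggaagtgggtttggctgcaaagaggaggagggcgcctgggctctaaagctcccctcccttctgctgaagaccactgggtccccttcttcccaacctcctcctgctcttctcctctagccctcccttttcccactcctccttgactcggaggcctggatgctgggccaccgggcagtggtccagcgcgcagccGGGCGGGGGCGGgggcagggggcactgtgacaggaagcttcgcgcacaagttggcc
Homer3: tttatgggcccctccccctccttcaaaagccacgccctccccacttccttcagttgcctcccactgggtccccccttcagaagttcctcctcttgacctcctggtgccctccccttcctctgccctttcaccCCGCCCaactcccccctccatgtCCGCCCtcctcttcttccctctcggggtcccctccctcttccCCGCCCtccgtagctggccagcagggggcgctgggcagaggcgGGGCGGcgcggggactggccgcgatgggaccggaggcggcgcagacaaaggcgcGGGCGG
Camk2b: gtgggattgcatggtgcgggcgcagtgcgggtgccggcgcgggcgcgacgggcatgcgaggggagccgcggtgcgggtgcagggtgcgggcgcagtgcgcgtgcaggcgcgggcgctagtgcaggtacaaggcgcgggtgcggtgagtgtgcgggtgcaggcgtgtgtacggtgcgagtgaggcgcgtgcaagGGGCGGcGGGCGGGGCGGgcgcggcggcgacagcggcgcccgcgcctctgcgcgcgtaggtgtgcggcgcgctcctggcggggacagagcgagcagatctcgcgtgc
They held 3, 2, 5 and 3 GC boxes in that order. Of the 39 members, 28 had a promoter entry and 17 of these 28 (60.7%) held a GC box, as did 35.7% of all 32851 promoters. The letters TTCAGCACC, the left part of the site of the repressor REST, or their reverse complement were in 2 of the 28 (Grm2 and Nlgn1) and in 0.371% of all promoters. The cAMP response element TGACGTCA was in 0 of the 28 and in 1.79% of all promoters.

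In neurons, levels per length spanned almost the whole range of the set. By RPKM, which scales reads by gene length and library depth, the highest members in non-Tg neurons were Gria2, which sets the calcium permeability of AMPA receptors, at 57.4 RPKM, and Grin1, the obligatory NMDA receptor subunit, at 45.0 RPKM. Camk2a followed at 39.3 RPKM, Camk2b at 32.0 RPKM and Gria1 at 29.3 RPKM. In PS2APP neurons the order was Grin1 at 68.0 RPKM, Camk2b at 66.1 RPKM, Camk2a at 56.4 RPKM, Gria2 at 43.0 RPKM and Gria1 at 40.1 RPKM, and each gene overlapped its neighbours in that order in the range of its libraries. Grin2c was the lowest of the 39 in neurons of both genotypes, at 0.0945 RPKM in PS2APP and 0.0885 RPKM in non-Tg neurons.

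In astrocytes Grin2c led the set, at 39.5 RPKM in PS2APP and 39.7 RPKM in non-Tg libraries. Camk2a was second in PS2APP astrocytes at 26.6 RPKM and sixth in non-Tg astrocytes at 12.7 RPKM, while Gria2 was second in non-Tg astrocytes at 23.3 RPKM and sixth in PS2APP astrocytes at 19.1 RPKM. In myeloid cells Camk2a was the highest member at 19.5 RPKM in PS2APP and 9.58 RPKM in non-Tg libraries, followed by Dlg4 at 7.02 RPKM and 5.72 RPKM in the same groups. In bulk RNA from a sort, fewer cells of a type and less RNA per cell cannot be told apart.

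**Figure D1:**
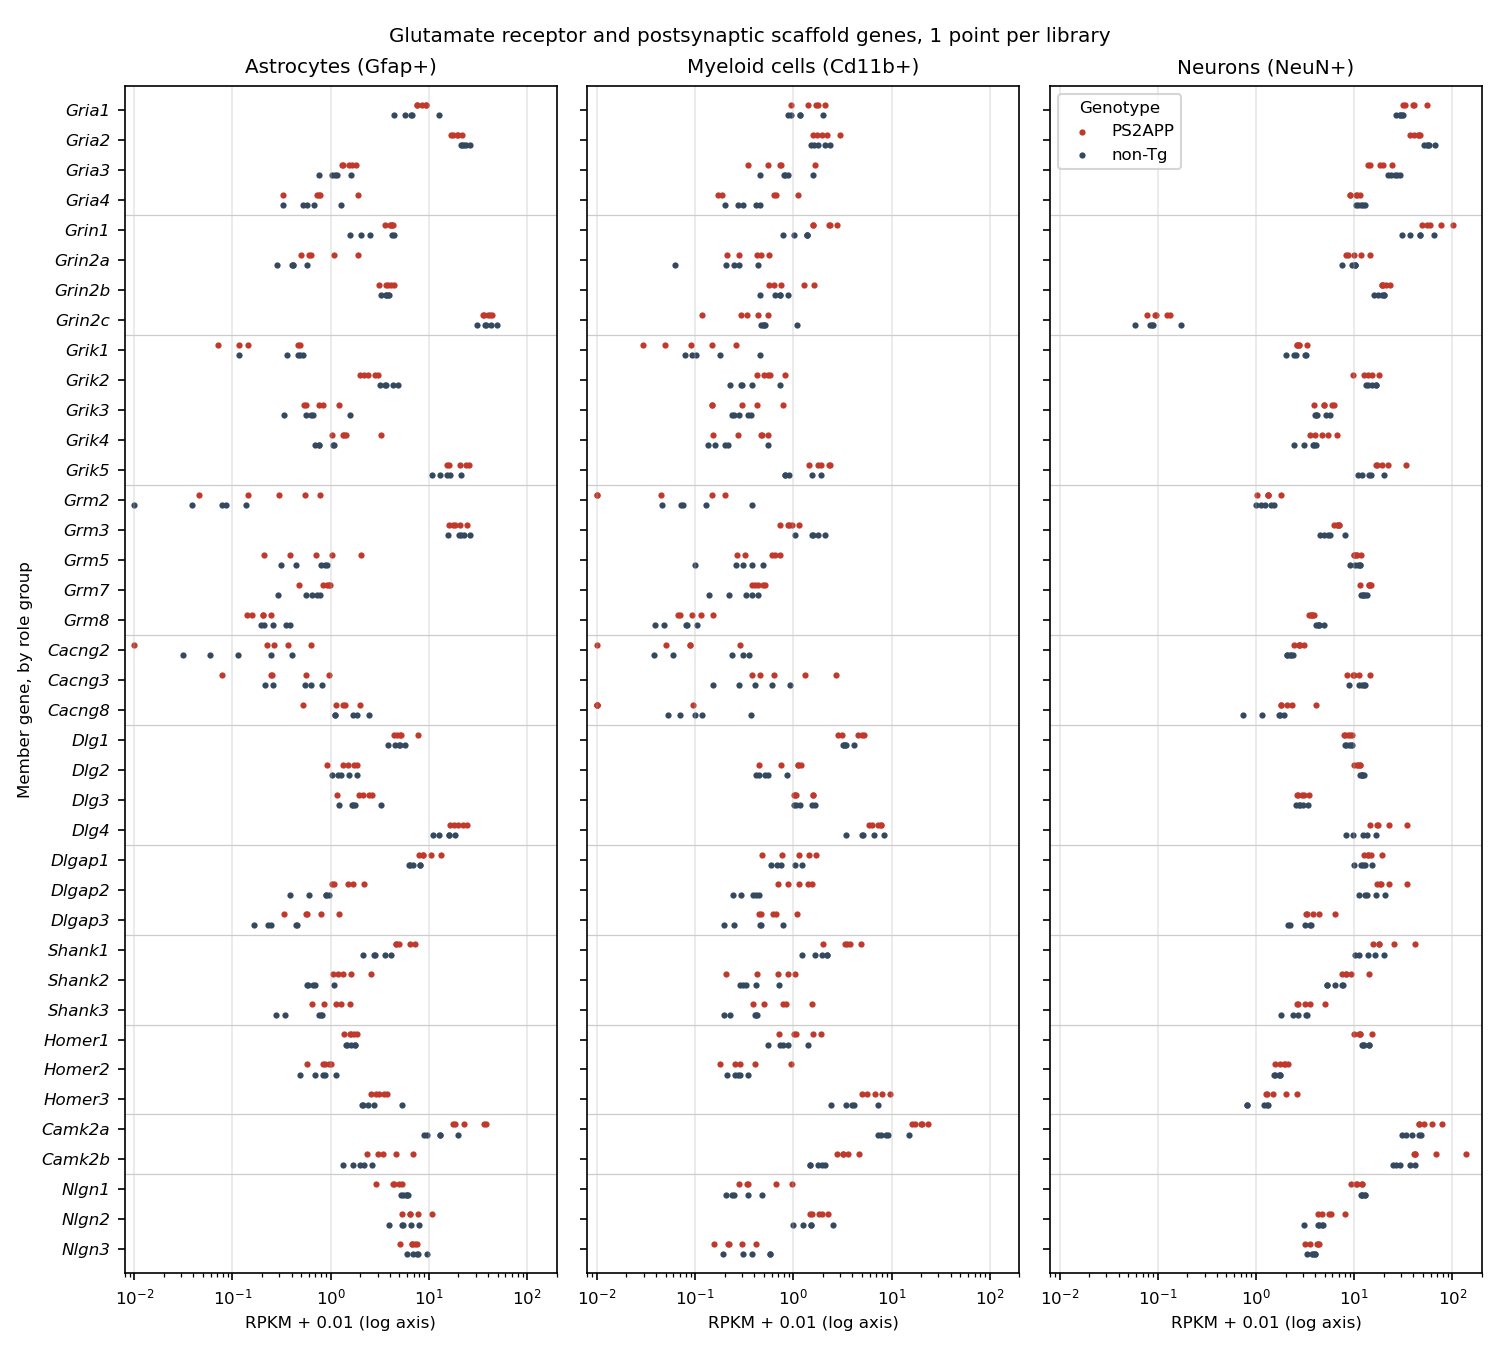
RPKM of the 39 members in every library (log axis, 0.01 added), by sort, with PS2APP points drawn above non-Tg points and role groups parted by lines. Grin2c is the lowest member in neurons and the highest in astrocytes, at about 39.5 RPKM in PS2APP and 39.7 RPKM in non-Tg astrocytes.

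The glial sorts were compared with the neuron sort in non-Tg libraries to ask in which sort each member was expressed, in 1 edgeR quasi-likelihood fit of all 30 libraries with p adjusted over 18101 genes. In astrocytes over neurons 4 members were higher, where 26.9% of all genes tested were higher, and 30 were lower, where 24.8% of all genes were. In myeloid cells over neurons 2 members were higher (34.1% of all genes) and 37 lower (33.7% of all genes). The median log2 difference of the members was -2.16 in astrocytes and -3.70 in myeloid cells, against 0.02 and 0.03 over all genes.

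Neuronal RNA in a glial sort can add to the level of a gene there, so the members were set beside 18 neuron markers. The markers themselves were lower in glia, between -4.23 (Snhg11, a neuronal noncoding RNA) and -0.28 (Nefl, neurofilament light chain) on the log2 scale in astrocytes over neurons, with a median of -2.38. In myeloid cells over neurons they lay between -5.33 (Snhg11) and -1.59 (Nefl), with a median of -3.11. In astrocytes 8 members lay above all 18 markers (Grin2c, Grm3, Homer3, Nlgn3, Nlgn2, Dlg4, Cacng8 and Grik5), 26 lay within their range and 5 below it (Gria3, Grin2a, Grm7, Cacng3 and Dlgap2). In myeloid cells 6 members lay above all markers (Grin2c, Homer3, Dlg4, Dlg3, Dlg1 and Nlgn2), 32 within their range and 1, Grm8, below it. For a member within the range of the markers, expression by glia and neuronal RNA in the sort cannot be told apart from these levels.

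**Figure D2:**
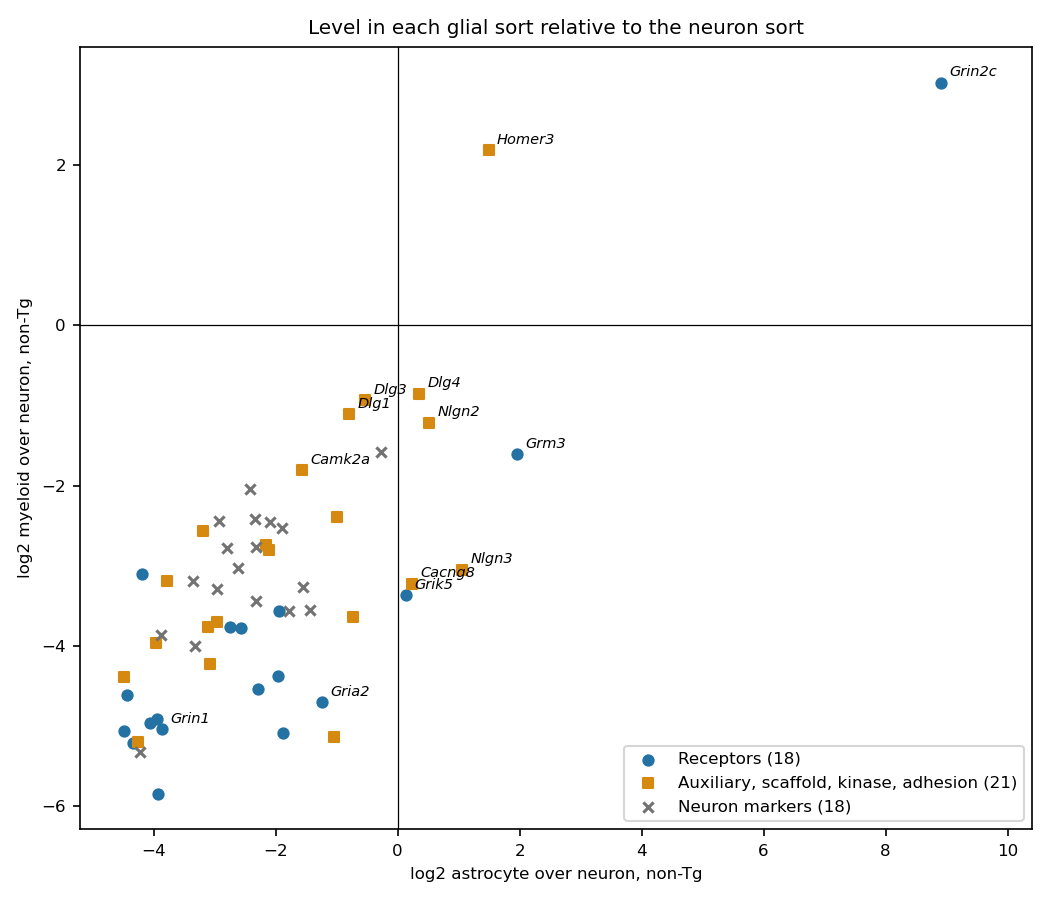
log2 difference of myeloid cells over neurons against that of astrocytes over neurons in non-Tg libraries for 18 receptor genes, 21 other members and 18 neuron markers. Grin2c stands apart at 8.91 and 3.03, Homer3 is the other member above 0 on both axes, and most members fall among the neuron markers.

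Among the receptors, Grin2c, an NMDA receptor subunit that gives the channel weak magnesium block, was the member that differed most. On CPM scaled over all 30 libraries it had 905, 1015, 892, 727 and 1158 CPM in non-Tg astrocytes, against 1.85, 1.12, 3.56, 1.66 and 1.76 CPM in non-Tg neurons. In non-Tg myeloid cells the 5 libraries held 12.8, 13.2, 28.1, 12.5 and 13.5 CPM. The 3 sorts did not overlap, and the astrocyte level was 8.91 ± 0.32 log2 above that in neurons (SE, adjusted p = 1.3e-22 by edgeR). The myeloid level was 3.03 ± 0.29 log2 above neurons (adjusted p = 1.6e-11 by edgeR), and its part from astrocyte RNA in the myeloid sort was not tested: the 10 astrocyte markers summed to 751 ± 197 CPM there (SD, n = 5).

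Grm3, a metabotropic receptor that lowers cAMP, had 238, 295, 179, 256 and 227 CPM in non-Tg astrocytes, against 88.3, 61.6, 47.3, 53.9 and 58.3 CPM in non-Tg neurons. The groups did not overlap, with a difference of 1.95 ± 0.19 log2 (adjusted p = 3.1e-11 by edgeR). In myeloid cells Grm3 was lower than in neurons, by a log2 difference of -1.61 ± 0.19 (adjusted p = 2.7e-09 by edgeR). Gria2 was lower than in neurons by -1.23 ± 0.15 log2 in astrocytes and by -4.70 ± 0.17 log2 in myeloid cells, and Grin1 by -3.87 ± 0.26 and -5.03 ± 0.28 log2 in the same sorts. Both genes lay within the range of the neuron markers in both sorts. Grik5, a kainate receptor subunit that needs a partner subunit to form a channel, had a log2 difference of 0.14 ± 0.24 in astrocytes over neurons (adjusted p = 0.64 by edgeR).

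Among the scaffolds, Homer3 was the member higher in both glial sorts. It had 43.8, 22.9, 19.8, 17.3 and 17.4 CPM in non-Tg astrocytes, 66.8, 36.8, 31.3, 23.0 and 38.7 CPM in non-Tg myeloid cells, and 10.6, 10.2, 6.19, 6.32 and 9.49 CPM in non-Tg neurons. Neither glial sort overlapped the neurons, while the 2 glial sorts overlapped each other. The differences from neurons were 1.49 ± 0.29 log2 in astrocytes (adjusted p = 3.9e-05) and 2.19 ± 0.29 log2 in myeloid cells (adjusted p = 3.9e-08, both by edgeR). Exons of Homer3 overlap those of Ddx49 on the opposite strand over 713 bases in the GENCODE M21 annotation. Ddx49 itself averaged 15.3 CPM in non-Tg astrocytes, 32.6 CPM in non-Tg myeloid cells and 12.6 CPM in non-Tg neurons, and since the sources used here do not say that counting used strand, reads of the pair may be shared.

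Nlgn3, a neuroligin of excitatory and inhibitory synapses, had 95.7, 94.0, 74.7, 84.6 and 118 CPM in non-Tg astrocytes, against 40.2, 48.4, 43.1, 47.6 and 45.5 CPM in non-Tg neurons. The groups did not overlap, and the difference was 1.05 ± 0.21 log2 (adjusted p = 4.6e-05 by edgeR). On CPM scaled within each sort, oligodendrocyte precursor markers summed to 176 ± 28.3 CPM in non-Tg astrocytes and 3.28 ± 0.92 CPM in non-Tg neurons. Oligodendrocyte markers summed to 859 ± 163 and 232 ± 50.3 CPM in the same groups (SD, n = 5 each). The part of such RNA in the astrocyte-over-neuron differences here and below was not tested. Exons of Nlgn3 overlap a processed transcript on the same strand, so its counts are uncertain to that extent. Nlgn2, a neuroligin of inhibitory synapses, had 160, 108, 79.2, 111 and 132 CPM in non-Tg astrocytes and 94.3, 83.4, 58.1, 85.2 and 92.0 CPM in non-Tg neurons. These groups overlapped and the difference of 0.52 ± 0.22 log2 did not pass the threshold (adjusted p = 0.053 by edgeR).

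Dlg4 had 257, 223, 153, 220 and 174 CPM in non-Tg astrocytes, 130, 78.6, 78.8, 55.3 and 104 CPM in non-Tg myeloid cells, and 224, 167, 106, 129 and 179 CPM in non-Tg neurons. Astrocytes and neurons overlapped, with a difference of 0.35 ± 0.22 log2 (adjusted p = 0.20 by edgeR) that was -0.03 log2 in PS2APP libraries. In myeloid cells Dlg4 was lower than in neurons by -0.85 ± 0.23 log2 (adjusted p = 0.0012 by edgeR), above the 18 neuron markers. Dlg1 (SAP97) had 94.8, 78.9, 72.7, 77.3 and 78.6 CPM in non-Tg myeloid cells, against 190, 178, 158, 160 and 183 CPM in non-Tg neurons, a difference of -1.11 ± 0.17 log2. Dlg3 (SAP102) had 34.7, 23.7, 22.3, 38.1 and 26.8 CPM in non-Tg myeloid cells, against 66.0, 53.5, 47.5, 53.9 and 58.4 CPM in non-Tg neurons, a difference of -0.94 ± 0.24 log2 (adjusted p = 0.00067 by edgeR). Nlgn2 in myeloid cells differed from neurons by -1.22 ± 0.23 log2, with 34.4, 57.5, 27.8, 35.2 and 22.4 CPM in the non-Tg myeloid libraries.

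With the summed neuron-marker count of each library as its library size, a value above 0 means more RNA per neuron-marker count in the glial sort than in the neuron sort. On that scale 22 members were higher in astrocytes over neurons, where 87.5% of all genes were, and 6 were lower, where 1.42% of all genes were. In myeloid cells over neurons 14 members were higher (82.6% of all genes) and 10 lower (2.28% of all genes). The members with the largest values in astrocytes were Grin2c at 12.39 ± 0.48 log2 and Grm3 at 5.45 ± 0.32 log2, and in myeloid cells Grin2c at 7.16 ± 0.40 log2 and Homer3 at 6.36 ± 0.37 log2. Snhg11 held 67.8% of the marker count in non-Tg neurons but 37.3% in non-Tg astrocytes and 30.2% in non-Tg myeloid cells. Without Snhg11 in the sum, 15 members were higher and 14 lower in astrocytes over neurons (80.2% and 4.67% of all genes), and 8 were higher and 19 lower in myeloid cells over neurons (75.1% and 7.94% of all genes). With the geometric mean of the markers, 16 were higher and 14 lower in astrocytes (81.2% and 4.45% of all genes), and 9 were higher and 17 lower in myeloid cells (76.2% and 7.35% of all genes).

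Of 47 other genes of the same pathway, sorted into 4 lists, the astrocyte-over-neuron contrast called 2 of 7 tested further glutamate receptor genes higher (Grin3a at 1.61 ± 0.28 log2 and Grin3b at 1.38 ± 0.44 log2) and 4 lower. Of 10 further auxiliary genes 1 was higher, Cacng7 at 1.005 ± 0.32 log2, and 6 were lower. Of 21 further postsynaptic density genes 4 were higher, among them Camk2g at 1.84 ± 0.17 log2 and Ppp1r9b (spinophilin) at 1.18 ± 0.19 log2, and 13 were lower. Of 8 mRNAs known from dendrites 0 were higher and 6 lower by edgeR. In myeloid cells over neurons, Ppp1r9b at 2.55 ± 0.19 log2, Limk1, which encodes a kinase that controls actin, at 2.02 ± 0.26 log2, Grin3b at 1.26 ± 0.44 log2 and Camk2n1, an inhibitor of CaMKII, at 0.62 ± 0.23 log2 were higher. In the same order of lists 6, 8, 13 and 6 genes were lower in myeloid cells.

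The PS2APP and non-Tg libraries of each sort were then compared to ask whether these genes differed with the transgenes. Each sort was fitted alone with edgeR's quasi-likelihood test, p was adjusted over all genes tested in that sort, and CPM were scaled within the sort. In these fits the genotype calls among the members came from myeloid cells, while some other settings given below also called members in astrocytes and neurons.

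In myeloid cells, Camk2a, Camk2b, Shank1 and Dlgap2 rose in PS2APP mice, by 1.8-fold to 3.2-fold, and no member was called lower. In edgeR 33 of the 39 members were tested and 4 were called, all higher, where 1.86% of all 12274 genes were called higher, 1.5% lower and 3.36% in either direction. DESeq2 called 6 members, adding Grin1 and Shank3, where it called 7.32% of all genes. In 1 fit of all 30 libraries edgeR called 4 members, where it called 4.41% of all genes: Camk2a at 0.90 ± 0.24 log2, Dlgap2 at 1.59 ± 0.28 log2 and Shank3 at 1.17 ± 0.35 log2 were higher and Grm3 at -0.90 ± 0.21 log2 was lower (adjusted p = 0.014 for Grm3), while Camk2b and Shank1 were not called (adjusted p = 0.078 and 0.057 by edgeR). The genes lie at chr18:60925307-60988152 (Camk2a), chr11:5969629-6066357 (Camk2b), chr7:44308916-44360094 (Shank1) and chr8:14095776-14853426 (Dlgap2) in GRCm38, and counts were summed over their gene models. The 6 members left out by the filter on low counts were Grik1, Grm2, Grm8, Cacng2, Cacng3 and Cacng8. The median log2 difference over the 33 tested members was 0.54, with 28 above 0, against -0.0021 over all genes. The 4 called members belong to the scaffolds and kinases. Of 15 tested receptors 0 were called by edgeR, which lies near the 3.36% of all genes called, and 1, Grin1, was called by DESeq2. At an unadjusted p under 0.05 in edgeR, 2 receptors were higher and 1 lower. Over all genes 10.1% were higher and 9.30% lower at that level, so these receptor counts lie near the share over all genes.

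Camk2a, the alpha subunit of CaMKII, had 410, 360, 313, 276 and 353 CPM in PS2APP myeloid libraries, against 162, 139, 165, 133 and 277 CPM in non-Tg myeloid libraries. The groups met at their edges through non-Tg replicate 5, which stood above the other non-Tg libraries. The difference was 0.97 ± 0.19 log2 (adjusted p = 0.0070 by edgeR). Camk2b, the beta subunit, had 50.9, 57.6, 44.9, 71.9 and 51.0 CPM in PS2APP and 24.4, 23.2, 34.0, 32.3 and 29.7 CPM in non-Tg myeloid libraries. Its groups did not overlap, with a difference of 0.94 ± 0.22 log2 (adjusted p = 0.023 by edgeR).

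Shank1, a scaffold of the deeper postsynaptic density, had 176, 122, 72.6, 134 and 125 CPM in PS2APP and 82.3, 43.9, 80.0, 73.4 and 61.8 CPM in non-Tg myeloid libraries. PS2APP replicate 3 lay within the non-Tg range and the other PS2APP libraries above it. The difference was 0.88 ± 0.22 log2 (adjusted p = 0.028 by edgeR). Exons of Shank1 overlap those of 1700008O03Rik on the opposite strand over 339 bases. Dlgap2, a SAPAP scaffold, had 38.96, 42.3, 24.7, 18.5 and 31.5 CPM in PS2APP and 10.8, 11.3, 12.3, 8.25 and 6.82 CPM in non-Tg myeloid libraries. Its groups did not overlap, and its difference of 1.66 ± 0.32 log2 was the largest among the members (adjusted p = 0.0070 by edgeR).

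Neuron markers moved the same way in these libraries. Their 18-gene sum was 640, 706, 489, 746 and 555 CPM in PS2APP myeloid libraries, against 378, 402, 410, 402 and 492 CPM in non-Tg myeloid libraries. The groups overlapped through PS2APP replicate 3 and non-Tg replicate 5, the ratio of means was 1.51, and the two-sided exact permutation p was 0.0159 (0.0952 adjusted over 18 marker tests; the smallest p of 5 against 5 is 0.00794). Of the 18 neuron markers 16 had a positive log2 difference, with a median of 0.43, and Snhg11 was higher by 0.60 ± 0.16 log2 (adjusted p = 0.043 by edgeR). All 18 markers passed the filter on low counts in this sort.

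Other measures also moved with genotype there. The 8 oligodendrocyte markers summed to 1315 ± 299 CPM in PS2APP and 816 ± 182 CPM in non-Tg myeloid libraries (two-sided exact permutation test, p = 0.00794, adjusted 0.0714), while 12 microglia markers summed to 8690 ± 978 CPM in PS2APP and 10354 ± 574 CPM in non-Tg libraries of that sort (p = 0.0238 by the same exact test, adjusted 0.107). The oligodendrocyte ratio of 1.61 depended on the measure. It was 1.10 by geometric mean of the markers (exact permutation p = 0.310) and 1.37 by sum without TMM factors (exact permutation p = 0.0635). Mitochondrially encoded counts made up 13.5 ± 2.97% of PS2APP and 8.75 ± 2.89% of non-Tg myeloid libraries (SD, n = 5 each). Depth, as given above, did not overlap between the genotypes.

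With the neuron-marker count as library size, Camk2a had a log2 difference of 0.43 ± 0.22 (adjusted p = 0.15), Camk2b of 0.35 ± 0.26 (adjusted p = 0.33) and Shank1 of 0.27 ± 0.24 (adjusted p = 0.42, all by edgeR), and none of these passed the threshold. Dlgap2 kept a difference of 1.07 ± 0.36 log2 (adjusted p = 0.032 by edgeR), which was 1.04 log2 (adjusted p = 0.0504 by edgeR) without Snhg11 in the marker sum, a fit that called 2 members and 19.5% of all genes. On the same scale Grm3 and Grin2c were each lower by 1.38 log2 per neuron-marker count (adjusted p = 0.0092 and 0.026 by edgeR). That fit called 23.4% of all genes, and 0.416% of all genes were called higher. On the ordinary scale Grm3 had 13.1, 10.0, 11.4, 8.28 and 10.5 CPM in PS2APP and 18.5, 12.2, 21.2, 19.2 and 25.4 CPM in non-Tg myeloid libraries, with a log2 difference of -0.84 ± 0.33 (adjusted p = 0.17 by edgeR). Grin2c was not called on that scale either. In 1 fit of all 30 libraries its log2 difference was -0.87 ± 0.27 (adjusted p = 0.055 by edgeR). With the mitochondrial share as a covariate 0 members were called by edgeR, with Dlgap2 at 1.69 ± 0.42 log2 (adjusted p = 0.12) and Camk2a at 0.88 ± 0.24 log2 (adjusted p = 0.17), while 0.204% of all genes were called in that fit. At an unadjusted p under 0.05 both genes still passed in it.

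Without PS2APP myeloid replicate 4, the library that stood apart, Camk2a differed by 1.04 log2 (adjusted p = 0.0042) and Dlgap2 by 1.80 log2 (adjusted p = 0.0026, both by edgeR). Both genes passed the threshold in each of the 10 fits that left out 1 library. Camk2b lost its call without PS2APP replicate 4 or non-Tg replicates 2, 4 or 5 (adjusted p = 0.0506 to 0.0638 by edgeR). Shank1 lost its call without PS2APP replicates 1, 4 or 5 or non-Tg replicates 2, 4 or 5 (adjusted p = 0.0544 to 0.0797 by edgeR).

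**Figure D3:**
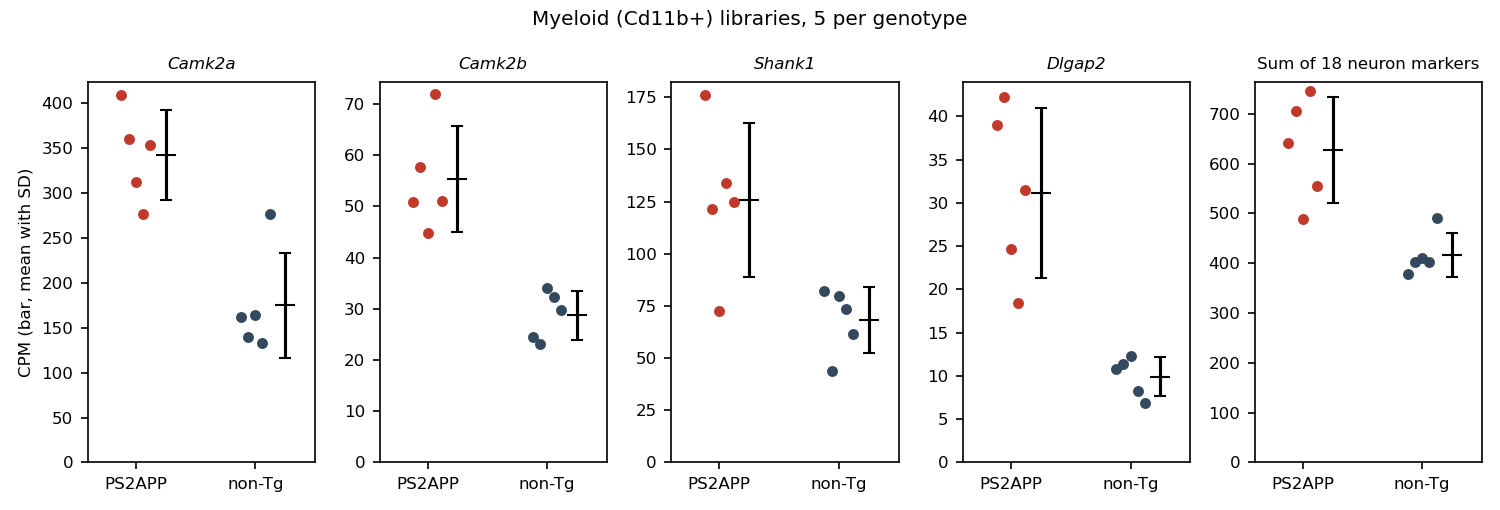
CPM scaled within the sort in each myeloid library for the 4 members called by genotype and for the sum of 18 neuron markers, PS2APP left and non-Tg right, with the mean and SD beside the points. Camk2b and Dlgap2 do not overlap between genotypes, and the marker sum averaged 627 ± 106 CPM in PS2APP and 417 ± 43.7 CPM in non-Tg libraries.

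The scaffold gene Dlg4 and the receptor genes Gria2 and Grin1 were not called by edgeR in myeloid cells, while DESeq2 called Grin1. Dlg4 had 105, 90.9, 112, 82.8 and 111 CPM in PS2APP and 124, 72.3, 75.8, 51.7 and 99.1 CPM in non-Tg myeloid libraries, with overlapping groups and a log2 difference of 0.25 ± 0.21 (adjusted p = 0.53 by edgeR). Gria2 had 73.3, 101, 66.1, 56.7 and 53.2 CPM in PS2APP and 62.6, 80.0, 56.6, 53.5 and 73.9 CPM in non-Tg myeloid libraries, with a log2 difference of 0.10 ± 0.20 (adjusted p = 0.83 by edgeR). Grin1 had 39.7, 33.8, 23.2, 32.5 and 22.5 CPM in PS2APP and 11.6, 20.0, 20.1, 15.2 and 20.4 CPM in non-Tg myeloid libraries. Its groups did not overlap, but its difference of 0.79 ± 0.29 log2 did not pass the threshold (adjusted p = 0.13 by edgeR). By role, the median log2 difference in myeloid cells was 0.88 for the Shank genes, 0.95 for the CaMKII genes and 0.55 for the SAPAP genes, against 0.22 for the AMPA, 0.54 for the NMDA and 0.54 for the kainate receptor subunits, 0.53 for the metabotropic receptors, 0.23 for the MAGUK genes, 0.54 for the Homer genes and 0.17 for the neuroligins. The 3 neuroligins ranged between -0.73 (Nlgn3) and 0.76 (Nlgn1) log2. Of the further pathway lists, 1 was called in myeloid cells, Baiap2, which encodes an actin regulator of spines, at 0.99 ± 0.25 log2 (adjusted p = 0.034 by edgeR). The 6 tested mRNAs known from dendrites had a median log2 difference of 0.69 and 0 calls by edgeR, with Map2 at 0.68 log2 (adjusted p = 0.075).

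In astrocytes 36 of the 39 members were tested and 0 were called by edgeR, where 0.185% of 14043 genes were called. At an unadjusted p under 0.05, 12 members were higher and 2 lower, where 10.2% of all genes were higher and 7.0% lower, and 0 members passed that level once the mitochondrial share entered the fit. That share did not overlap between the genotypes in this sort, so a fit with it cannot separate the share from genotype. DESeq2 called 6, all higher (Camk2a, Camk2b, Shank1, Shank2, Dlgap2 and Grin2a), where it called 2.33% of all genes. Without the filter on low counts edgeR also called 6 members (1.79% of all genes), as did 1 fit of all 30 libraries (1.63% of all genes). The members' median log2 difference was 0.30, with 28 above 0, against 0.01 over all genes. Without PS2APP astrocyte replicate 3 that median was 0.070, with the mitochondrial covariate it was -0.15 with 12 members above 0, and with the neuron-marker library size it was -0.35 with 9 above 0. Grm2, Cacng2 and Cacng3 did not pass the filter on low counts.

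The 3 members of smallest p in astrocytes were again kinase and scaffold genes. Camk2a had 548, 277, 594, 264 and 340 CPM in PS2APP and 192, 141, 195, 292 and 132 CPM in non-Tg astrocytes, with 2 PS2APP libraries below the highest non-Tg library. Its log2 difference was 1.09 ± 0.25 (adjusted p = 0.078 by edgeR). Shank1 had 198, 143, 229, 139 and 152 CPM in PS2APP and 123, 84.3, 85.5, 109 and 63.7 CPM in non-Tg astrocytes, groups that did not overlap, with a difference of 0.88 ± 0.20 log2 (adjusted p = 0.078 by edgeR). Shank2 had 44.4, 58.9, 98.1, 48.7 and 38.6 CPM in PS2APP and 23.98, 20.8, 25.6, 38.98 and 21.2 CPM in non-Tg astrocytes. Its groups overlapped through non-Tg replicate 4, and the difference was 1.14 ± 0.26 log2 (adjusted p = 0.078 by edgeR). Without PS2APP astrocyte replicate 3, these differences were 0.91 log2 for Camk2a, 0.76 log2 for Shank1 and 0.87 log2 for Shank2 (adjusted p = 0.15 to 0.16 by edgeR). Once the mitochondrial share entered the fit they were 0.042 ± 0.44 log2 for Camk2a, -0.035 ± 0.32 log2 for Shank1 and 0.20 ± 0.49 log2 for Shank2. Because that share did not overlap between the genotypes in astrocytes, this fit cannot separate it from genotype, and the standard errors were larger.

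The neuron-marker sum was 824, 741, 1651, 944 and 903 CPM in PS2APP astrocytes, against 1001, 458, 666, 628 and 505 CPM in non-Tg astrocytes, a ratio of 1.55 (exact permutation p = 0.0635). The groups overlapped, and the highest sum was in PS2APP replicate 3, the library that stood apart. The 18 neuron markers had a median log2 difference of 0.70, with 16 above 0 and 0 called by edgeR, of which 8 were higher at an unadjusted p under 0.05. Microglia markers summed to 117 ± 27.2 CPM in PS2APP and 58.0 ± 12.7 CPM in non-Tg astrocytes (SD, n = 5 each; exact permutation p = 0.00794, adjusted 0.0714). Oligodendrocyte markers summed to 1344 ± 352 and 859 ± 163 CPM in the same groups (exact permutation p = 0.0317, adjusted 0.114). Their ratio of 1.56 was 1.36 by geometric mean (exact permutation p = 0.0794) and 1.37 without TMM factors (exact permutation p = 0.0556). Oligodendrocyte precursor markers summed to 244 ± 72.6 and 176 ± 28.3 CPM (exact permutation p = 0.119). Astrocyte markers went the other way, at 9584 ± 1222 and 12454 ± 2884 CPM (exact permutation p = 0.0952). The part of other glial RNA in the member values was not tested. Mitochondrial counts made up 5.60 to 8.60% of PS2APP and 2.41 to 4.74% of non-Tg astrocyte libraries, without overlap. With neuron-marker counts as library size, Camk2a had a difference of 0.44 ± 0.31 log2 (adjusted p = 0.32) and Shank1 of 0.27 ± 0.30 log2 (adjusted p = 0.53, both by edgeR). That fit called 1 member, Grik2, which was lower by a log2 difference of -1.27 ± 0.34 (adjusted p = 0.032 by edgeR), where 4.93% of all genes were called.

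Grin1 had 51.9, 43.5, 55.0, 50.3 and 49.6 CPM in PS2APP and 53.7, 24.8, 31.2, 51.1 and 18.9 CPM in non-Tg astrocytes, with overlapping groups and a difference of 0.47 ± 0.26 log2 (adjusted p = 0.35 by edgeR). Dlg4 had 220, 271, 305, 198 and 240 CPM in PS2APP and 222, 193, 134, 191 and 151 CPM in non-Tg astrocytes, with a difference of 0.47 ± 0.18 log2 (adjusted p = 0.19 by edgeR). Gria2 had 575, 562, 516, 482 and 631 CPM in PS2APP and 653, 608, 632, 685 and 746 CPM in non-Tg astrocytes, with a difference of -0.26 ± 0.14 log2 (adjusted p = 0.34 by edgeR). The astrocyte-enriched Grin2c averaged 824 ± 63.2 CPM in PS2APP and 815 ± 137 CPM in non-Tg astrocytes (SD, n = 5 each), a difference of 0.02 ± 0.15 log2 (adjusted p = 0.97 by edgeR). Grm3 averaged 194 ± 30.9 CPM in PS2APP and 207 ± 35.6 CPM in non-Tg astrocytes, a difference of -0.10 ± 0.17 log2 (adjusted p = 0.80 by edgeR).

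By role, the median log2 difference in astrocytes was 1.08 for the CaMKII genes, 1.02 for the SAPAP genes and 0.91 for the Shank genes, against 0.34 for the AMPA, 0.28 for the NMDA and 0.07 for the kainate receptor subunits, 0.16 for the metabotropic receptors, 0.17 for the MAGUK genes, 0.09 for the Homer genes and -0.15 for the neuroligins. Without PS2APP astrocyte replicate 3 the medians were 0.85 for the CaMKII, 0.83 for the SAPAP and 0.76 for the Shank genes, and those of the AMPA receptor subunits, the metabotropic receptors and the MAGUK genes were 0.071, -0.13 and 0.032. Those of the kainate receptor subunits, the Homer genes and the neuroligins were 0.042, 0.057 and -0.075. In the further pathway lists edgeR called 0 genes in astrocytes, and the 19 tested genes of the postsynaptic density had a median log2 difference of 0.46, with 10 higher at an unadjusted p under 0.05.

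In neurons all 39 members were tested and 0 were called by edgeR, where 0.00623% of 16064 genes, a single gene, were called. At an unadjusted p under 0.05, 15 members were higher and 3 lower, where 12.2% of all genes were higher and 10.6% lower. The 15 became 7 without PS2APP neuron replicate 5 and 8 without non-Tg neuron replicate 3 or replicate 4. DESeq2 called 1, Gria2, which was lower, where it called 0.952% of all genes. The members' median log2 difference was 0.16, against -0.02 over all genes. By role, 11 of the 15 with a positive difference were scaffold, kinase, auxiliary or adhesion genes, and the 3 with a negative one were receptors, 2 of them AMPA receptor subunits.

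Gria2 had 1746, 1698, 1552, 1651 and 1438 CPM in PS2APP neurons, against 2075, 2172, 2438, 2181 and 1951 CPM in non-Tg neurons. Its groups did not overlap, with a difference of -0.42 ± 0.12 log2 (adjusted p = 0.19 by edgeR, 0.0063 by DESeq2). Gria3 had 512, 388, 315, 419 and 303 CPM in PS2APP and 481, 512, 565, 634 and 568 CPM in non-Tg neurons, with PS2APP replicate 1 inside the non-Tg range and a difference of -0.51 ± 0.15 log2 (adjusted p = 0.19 by edgeR). Dlg4 had 231, 280, 360, 272 and 558 CPM in PS2APP and 268, 201, 127, 156 and 216 CPM in non-Tg neurons, with overlapping groups and a difference of 0.81 ± 0.25 log2 (adjusted p = 0.19 by edgeR). Grin1 had 789, 955, 1230, 871 and 1651 CPM in PS2APP and 1050, 760, 482, 595 and 756 CPM in non-Tg neurons, also overlapping, with a difference of 0.59 ± 0.23 log2 (adjusted p = 0.19 by edgeR).

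By role, the median log2 difference in neurons was -0.32 for the AMPA, 0.15 for the NMDA and 0.16 for the kainate receptor subunits and 0.11 for the metabotropic receptors. It was 0.79 for the CaMKII genes, 0.57 for the Shank genes, 0.52 for the SAPAP genes, 0.32 for the auxiliary subunits, 0.16 for the Homer genes, 0.04 for the neuroligins and 0.0028 for the MAGUK genes. Without PS2APP neuron replicate 5 the medians were 0.47 for the CaMKII, 0.36 for the Shank and 0.32 for the SAPAP genes, 0.096 for the kainate receptor subunits, 0.11 for the Homer genes, 0.10 for the neuroligins, -0.024 for the metabotropic receptors and -0.022 for the MAGUK genes.

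PS2APP neuron replicate 5 held the highest value of Dlg4 and Grin1 and the lowest of Gria2 and Gria3. Without it the differences were -0.38 log2 for Gria2, -0.43 log2 for Gria3, 0.56 log2 for Dlg4 and 0.40 log2 for Grin1. The neuron-marker sum did not separate the genotypes in neurons, at 9724 ± 1084 CPM in PS2APP and 9384 ± 770 CPM in non-Tg neurons (SD, n = 5 each, exact permutation p = 0.595). Snhg11 made up 64.0% of the marker count in PS2APP and 67.8% in non-Tg neurons, so that sum mostly follows 1 gene. By geometric mean of the markers the ratio was 1.11 (exact permutation p = 0.135), and by sum without TMM factors it was 0.922 (exact permutation p = 0.310). With the level of Xist as a covariate, edgeR called 18 members, 16 higher and 2 lower (Gria2 and Gria3), where it called 27.9% of all genes in that fit. The labels give no sex, and the level of Xist by genotype is not given here. Whether that fit can separate Xist from genotype is therefore not shown.

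**Figure D4:**
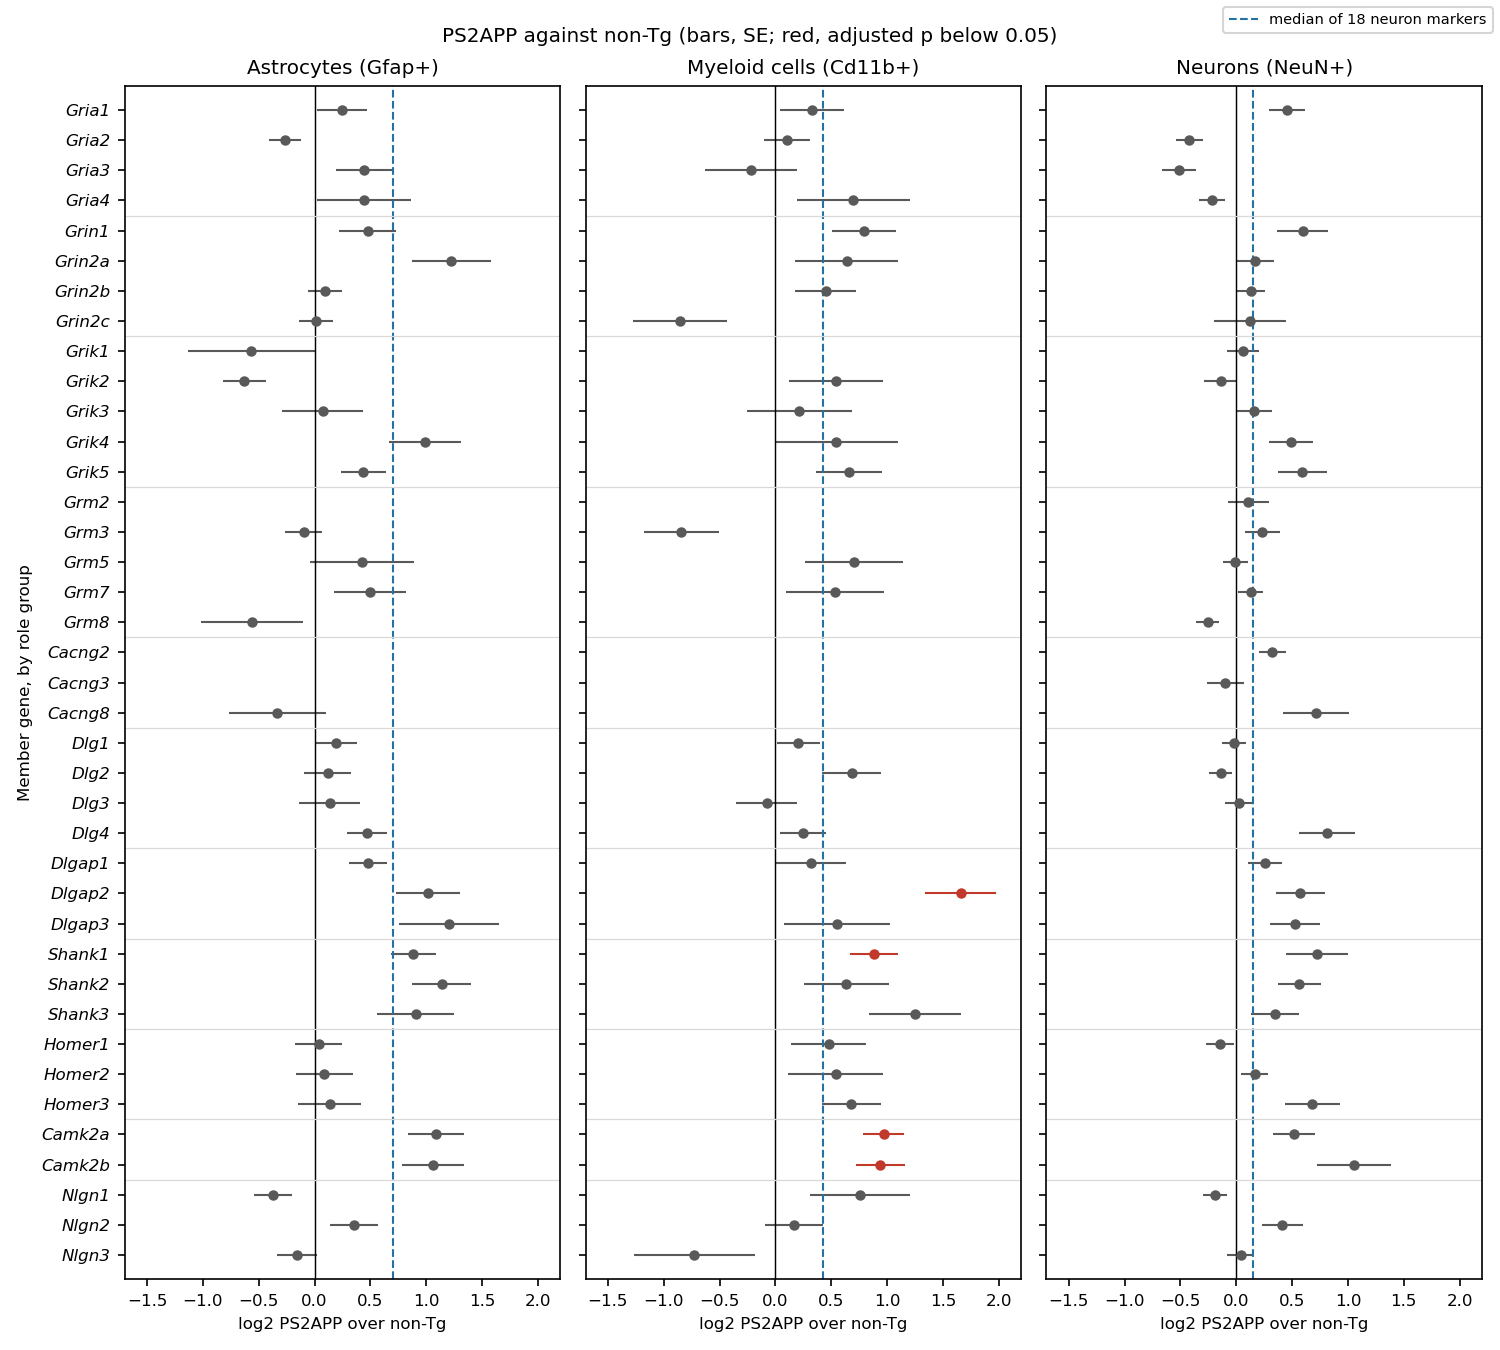
log2 difference of PS2APP over non-Tg with its SE for each member tested in astrocytes, myeloid cells and neurons, red where edgeR's adjusted p was below 0.05, with the median of the 18 neuron markers as a dashed line and a blank row where a member was not tested. The 4 red points are Camk2a, Camk2b, Shank1 and Dlgap2 in myeloid cells, and the marker medians are 0.70 in astrocytes, 0.43 in myeloid cells and 0.15 in neurons.

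Whether the genotype difference of a member itself differed between sorts was tested with interaction contrasts in the fit of all 30 libraries. In edgeR 0 of 39 members were called in each of the 3 contrasts, where 0.105% of 18101 genes were called in myeloid minus neuron, 0.0331% in astrocyte minus neuron and 0.757% in myeloid minus astrocyte. At an unadjusted p under 0.05 the members numbered 7, 3 and 6 in that order, where 9.65%, 4.97% and 13.0% of all genes passed that level, so that 3 of 39 and 6 of 39 lie near the share over all genes. DESeq2 called 0, 0 and 3 (Grm2, Grik2 and Nlgn1), where it called 0.47%, 0.0939% and 2.11% of all genes. Of these, Grm2 held 0 to 15 counts in myeloid libraries and 0 to 28 counts in astrocyte libraries. It did not pass the filter on low counts in either sort alone. For the genes called in myeloid cells, the myeloid minus neuron difference was 0.36 ± 0.33 log2 for Camk2a, -0.22 ± 0.39 for Camk2b, 0.07 ± 0.35 for Shank1 and 1.01 ± 0.36 for Dlgap2 (adjusted p = 0.34 for Dlgap2 by edgeR). So the myeloid calls were not shown to be particular to myeloid cells, and the standard errors leave room for differences of either sign for the first 3 genes. The smallest p of a member was that of Grm3 in myeloid minus neuron, at -1.15 ± 0.28 log2 (adjusted p = 0.11 by edgeR).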

How the data were processed

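Each of 30 libraries from sorted cells came with gene counts and RPKM. The authors deposited read counts per gene model, and reads were counted where they aligned uniquely, per the file headers. The deposited RPKM values are size-factor-adjusted, per the file headers. GSNAP and GRCm38 are named in the submitters' processing notes; neither versions nor strand use were given there. Symbols matched 31049 of 36528 identifiers, with 96.7% of counts. Genotypes were compared within each sort, and sorts in 1 fit of 30 libraries, with edgeR 4.0.16 (R 4.3.3; quasi-likelihood test, TMM scaling, filterByExpr, Benjamini-Hochberg adjusted p below 0.05); DESeq2 1.42.0 was an alternative. Marker sums used exact permutation tests (scipy 1.17.1). The SE is the log2 difference over the root of F. Fits were also run on simulated data, with outcomes not reported here. For the neuron-marker scale the simulated glia held only a scaled neuron profile with some genes raised. That run therefore does not test the scale on libraries with glial RNA. Alternatives covered scaling, the low-count filter, mitochondrial and Xist covariates, the neuron-marker library size and leaving out each library; dropping Snhg11 from the marker count was chosen after seeing the data. RPKM served only for levels between genes. Printed per library are members past the threshold, the 3 of smallest p in each sort, up to 6 per glial sort with the smallest p per neuron-marker count, and Gria2, Grin1 and Dlg4; Grm3 in myeloid cells and Grin2c and Grm3 in astrocytes by genotype were added after their values were seen. Members and lists were chosen with earlier results of these data known. The lowest chi-square per degree of freedom between libraries of a group was 3.71, so no pair of libraries agreed within sampling noise. Counting floors cover counting error only. Some single genes of the marker and pathway lists are not reported here.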

Additional observations from a re-analysis of the deposited data

Results flagged for a closer look

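Of 34 groups of 5 libraries examined among the members printed per library, 2 held a library far from the other 4, where chance flags about 1 in 20 groups. Shank2 in non-Tg astrocyte replicate 4 had 38.98 CPM, against 20.8 to 25.6 CPM in the other non-Tg astrocyte libraries. Camk2a in non-Tg myeloid replicate 5 had 277.0 CPM, against 133 to 165 CPM in the other non-Tg myeloid libraries. That library also held the highest neuron-marker sum among the non-Tg myeloid libraries, at 492 CPM, and its part in the Camk2a value was not tested.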

How the results depend on the processing

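No paired analysis was possible because the labels give no replicate numbers and tie no library to an animal; the numbers used here follow accession order and only name libraries. The number of members called in neurons (0) was 1 with DESeq2 and 18 with the Xist covariate. In astrocytes (0) it was 6 without the low-count filter, 6 with DESeq2, 6 in 1 fit of all libraries and 1 with the neuron-marker library size. In myeloid cells (4) it was 0 with the mitochondrial covariate and 2 with the marker count without Snhg11. DESeq2 called 3 members in myeloid minus astrocyte, among them Grm2, which had few counts in both sorts. Leaving out 1 library gave 0 to 1 calls in astrocytes, 2 to 5 in myeloid cells, 0 to 1 in myeloid minus neuron and 0 to 1 in myeloid minus astrocyte. Per neuron-marker count, members higher in myeloid cells (14) numbered 9 with the geometric mean and 8 without Snhg11. Without TMM, the neuron-marker ratio was 0.922 in neurons and 1.26 in myeloid cells (exact p = 0.0556). Over all genes, calls in neurons (1) were 15 without the filter, 153 with DESeq2, 4476 with Xist and 5 in 1 fit; in astrocytes (26) 514, 327, 0 and 295, with 0 under the mitochondrial covariate and 693 with the marker size; in myeloid cells (412) 939 without the filter, 899 with DESeq2, 25 with the mitochondrial covariate, 2876 with the marker size and 798 in 1 fit. Leaving out 1 library gave 1 to 11, 8 to 125 and 105 to 652. Signs turned for Dlg4 in astrocytes (-0.088 with the mitochondrial covariate, -0.16 and -0.21 with the marker size with and without Snhg11), Grin1 in astrocytes (-0.57, -0.058 and -0.092 in that order), Shank1 in astrocytes (-0.035 with the mitochondrial covariate), Dlg4 in myeloid cells (-0.30 and -0.29 by marker size), Gria2 in myeloid cells (-0.48 and -0.50 by marker size, -0.057 without PS2APP replicate 2, with 0.189 as the highest on leaving out 1 library) and Dlg4 in astrocytes over neurons in PS2APP libraries (-0.027). Marker ratios turned to 1.19 (astrocyte) and 1.06 (endothelial) in neurons, 0.917 (endothelial) in astrocytes and 0.950 (astrocyte) in myeloid cells by geometric mean, and to 0.875 (astrocyte, myeloid cells) without TMM. The cause was not tested.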
